A study of Homo sapiens with 24 samples.

Results

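Cytosolic ribosomal protein genes were examined in 4 human cancer cell lines treated with Ocoxin. The family was defined as the protein-coding genes whose symbol is RPL or RPS followed by a number, together with RPSA, RPLP0, RPLP1 and RPLP2, without the RPS6K kinases. By this rule 86 of the 58051 genes in the count tables were members, 52 of the large 60S subunit and 34 of the small 40S subunit. Of these, 77 were core ribosomal proteins and 9 were paralogs, 2 of them Y-linked and given here only within counts.

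The cell lines were SW620 for colorectal adenocarcinoma (COAD), BxPC-3 for pancreatic adenocarcinoma (PAAD), LNCaP for prostate adenocarcinoma (PRAD) and HCC-70 for triple negative breast cancer (TNBC). Each is 1 established line, with 3 control and 3 Ocoxin libraries, 24 in all. Ocoxin is a nutritional supplement in which vitamins, minerals and amino acids are blended with extracts of plants such as green tea. It was given for 48 h at a dilution of 700-fold in COAD and in TNBC, of 500-fold in PAAD and of 50-fold in PRAD. The paper chose each dilution as the approximate IC50 of that line in a viability assay. The treatment medium was RPMI-1640 with 1% serum, and RNA came from the cells that were still attached. The labels put the dilution on control libraries too, so the letters C and O of the titles set the groups. They do not say whether replicates were separate cultures, so the p-values measure the spread between these libraries, which may be technical.

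A ribosome holds 1 copy of nearly every one of these proteins, and their mRNAs are among the most abundant in growing cells. Many of these mRNAs begin with a cytosine followed by a run of pyrimidines, the 5′ terminal oligopyrimidine (TOP) tract. Through this tract, mTORC1 and the RNA-binding protein LARP1 control their translation and stability together. RPL5 and RPL11 also bind 5S rRNA and can hold back MDM2, the ubiquitin ligase of p53.

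The start of the transcript was compared first, because the tract is the feature that these mRNAs are known to share. RefSeq (GRCh38.p14) gave a start for 69 of the 86 members. The strand with the sequence of the transcript was read. A tract was counted where a C within 5 bases of that start opened a stretch of at least 6 bases that were each C or T. Such a stretch stood at 46 of 62 core members (74.2%) and at 2 of 7 paralogs (28.6%), against 11.3% of 15251 protein-coding genes. The following 30-base windows run from 10 bases before the start to 20 bases from it, and capitals mark the longest stretch of C and T that reached within 5 bases of the start. RPL34, RPS3A, RPL31 and RPS28 are shown because they are described at length below, RPS6 as the S6 kinase substrate, and RPL27, RPL15 and RPS27L as members with no such tract at the annotated start.
RPL34 (chr4:108620566-108620595, plus strand): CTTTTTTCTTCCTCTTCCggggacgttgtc
RPS3A (chr4:151099618-151099647, plus strand): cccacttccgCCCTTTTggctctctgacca
RPL31 (chr2:101002279-101002308, plus strand): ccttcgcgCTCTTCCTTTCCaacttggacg
RPS28 (chr19:8321486-8321515, plus strand): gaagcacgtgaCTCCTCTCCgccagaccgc
RPS6 (chr9:19380217-19380246, minus strand): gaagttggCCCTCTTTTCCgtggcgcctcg
RPL27 (chr17:42998409-42998438, plus strand): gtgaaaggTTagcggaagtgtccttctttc
RPL15 (chr3:23916535-23916564, plus strand): tggggCCTgctggaggagcttcacgcagtc
RPS27L (chr15:63157458-63157487, minus strand): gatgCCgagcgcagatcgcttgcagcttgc

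The values are counts of aligned reads per gene, given here as CPM, counts scaled to the TMM-adjusted size of the library. Totals per library ranged from 25160757 to 39009959 in COAD, PAAD and TNBC and from 9063968 to 9520969 in PRAD. PRAD was counted in a separate table whose counts are compressed: the highest member held 0.602 to 0.632 counts per base of exon in its libraries, against 12.2 to 17.3 in libraries of the other lines. Levels were therefore compared only within a table. Tissue markers were at or above 1 CPM for 4 of 5 colon genes in COAD, 5 of 5 ductal genes in PAAD, 5 of 5 luminal genes in PRAD and 3 of 3 basal genes in TNBC. The ductal and basal lists did not separate the lines: in PAAD the 3 basal genes summed to 5501 CPM in controls, against 1963 CPM in TNBC, and in TNBC all 5 ductal genes were at or above 1 CPM, as were 4 in COAD. In TNBC controls ESR1 stood at 6.85 CPM, PGR at 0 and ERBB2 at 248 CPM. Leukocyte markers summed to at most 6.09 CPM in COAD, PAAD and PRAD controls and to 134 CPM in TNBC, nearly all of it CD14. A smaller share of cells with a transcript and less of it per cell cannot be told apart in these bulk libraries.

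The family took a smaller part of the counts with Ocoxin in PAAD, PRAD and TNBC and a larger part in COAD. In TNBC the share was 1.85%, 1.91% and 1.87% in control libraries and 1.76%, 1.77% and 1.78% with Ocoxin, so the groups did not overlap. In PRAD it was 0.646%, 0.642% and 0.658% in controls and 0.627%, 0.627% and 0.637% with Ocoxin, again without overlap. In PAAD the controls held 3.03%, 2.77% and 2.63%, and the treated libraries 2.68%, 2.60% and 2.45%. The lowest PAAD control lay below the highest treated library, so these groups overlapped, but each treated library lay below the control of the same replicate number. In COAD the controls held 3.30%, 3.20% and 3.48%, and the treated libraries 3.43%, 3.66% and 3.81%. The first treated COAD library lay within the controls. COAD totals were also lower with Ocoxin, from 25160757 to 29670036 against 31265452 to 34397801 in controls, and the part of depth in the COAD values was not tested.

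**Figure D1:**
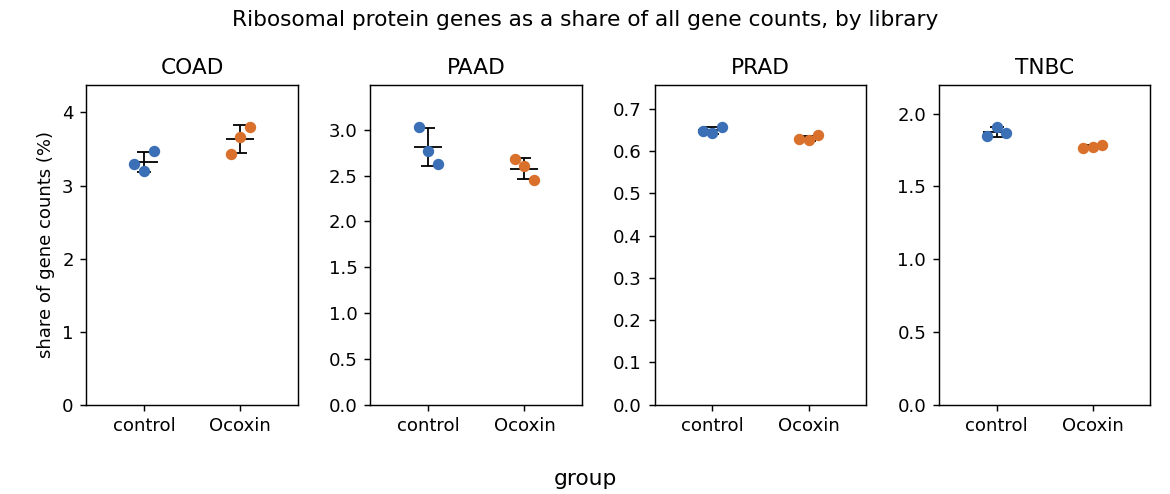
Share of all gene counts (%) held by the 86 ribosomal protein genes in each library, with control in blue, Ocoxin in orange, and bars for the mean and SD of 3 libraries; each panel has its own scale from 0. The treated TNBC libraries, 1.76% to 1.78%, lie below the controls, 1.85% to 1.91%, while in COAD the mean rises from 3.32% to 3.63%.

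In TNBC, Ocoxin lowered 35 of the 83 members tested and raised 1, RPL36A. Among all 17352 genes tested in this line, 11.3% were called lower and 9.65% higher. A gene was called at an adjusted p under 0.05 in edgeR's quasi-likelihood F-test, with adjustment over all genes tested. The changes were small: the median log2 fold change of the members was -0.12, against 0.01 over all genes tested, so that the median member fell by 7.83%. The log2 fold change was negative for 79 members, and for 60 members every treated library lay below every control, where 19.8% of all genes did so. Every treated library lay above every control for 1 member, against 18.3% of all genes. Members of both subunits were called, with 19 of 31 core 40S members and 15 of 46 core 60S members lower. Whether the subunits differed was not tested. The replicate numbers paired the TNBC libraries, and with the number as a block 57 members were lower, against 17.6% of all genes.

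RPL34, a protein of the 60S subunit, had the largest called fall in TNBC. Its level was 99.2, 100 and 102 CPM in controls and 77.4, 83.3 and 85.1 CPM with Ocoxin. The groups stood well apart, with a log2 fold change of -0.29 ± 0.05 (SE, n = 3 per group, edgeR adjusted p = 0.000892). RPL27, another 60S protein, had 182, 184 and 182 CPM in controls and 149, 152 and 154 CPM with Ocoxin. The controls lay close together and the log2 fold change was -0.27 ± 0.04, with the smallest edgeR adjusted p of the family (0.000307). RPS28, a small protein of the 40S subunit, had 22.4, 24.6 and 20.98 CPM in controls and 18.96, 18.5 and 18.8 CPM with Ocoxin. Its log2 fold change was -0.27 ± 0.07 (edgeR adjusted p = 0.0184). Near-identical copies leave RPS28 uncertain: 5 annotated pseudogenes held 399.9% of its own counts over all libraries, and with their counts added the log2 fold change was -0.14 (edgeR adjusted p = 0.0380).

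RPS13, of the 40S subunit, fell from 93.0, 100.5 and 96.5 CPM to 81.3, 79.9 and 87.8 CPM, with a log2 fold change of -0.22 ± 0.05 (edgeR adjusted p = 0.00769). RPL9, of the 60S subunit, fell from 57.3, 58.6 and 61.0 CPM to 51.1, 50.1 and 51.3 CPM, with a log2 fold change of -0.21 ± 0.05 (edgeR adjusted p = 0.00723). All treated libraries lay below all controls for both genes. RPS6, the protein that S6 kinase phosphorylates downstream of mTORC1, had the highest level per kb of annotated exon in TNBC controls (353 CPM per kb). This rank depends partly on the exons annotated. RPS6 stood at 962, 957 and 952 CPM in controls and at 895, 891 and 905 CPM with Ocoxin. The fall was slight, -0.09 ± 0.03 on the log2 scale, and was called (edgeR adjusted p = 0.0386). Leaving out 1 library at a time gave 17 to 39 members lower in TNBC, with the lowest counts (17, 19 and 20) for Ocoxin replicates 1 and 2 and control replicate 2. Of all genes, 7.3% to 11.5% were lower in these fits.

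In PAAD, 8 of 82 members were lower and none was higher, where 3.62% of all genes tested were lower and 4.72% higher in edgeR's test. With an unadjusted p under 0.05 there were 40, against 3946 of the 17280 genes tested. Most members were negative, with a median log2 fold change of -0.14 and 79 negative values, so that the median member fell by 9.04%. Without control replicate 1 the median was -0.09. No called member was a paralog. The groups did not overlap for 36 members, all lower with Ocoxin, against 13.9% of all genes for lower and 13.6% for higher. With the replicate number as a block, which paired the PAAD libraries, 60 members were lower, against 11% of all genes. Without the block, 35 members were lower when control replicate 3 was left out, against 4.8% of all genes. The count fell when any other library was left out: 1 member was lower without control replicate 1, control replicate 2, Ocoxin replicate 1 or Ocoxin replicate 3, and 2 without Ocoxin replicate 2. In the latter fits 1.65% to 3.12% of all genes were lower.

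RPS3A, a 40S protein, had the largest called fall in PAAD. It stood at 46.9, 41.2 and 42.04 CPM in controls and at 35.0, 33.5 and 33.7 CPM with Ocoxin. The groups were clearly separate, with a log2 fold change of -0.35 ± 0.07 (SE, n = 3 per group, edgeR adjusted p = 0.00727). Pseudogenes held 389.4% of the counts of RPS3A, and with these added the log2 fold change was -0.30 (edgeR adjusted p = 0.00538). RPL21, of the 60S subunit, had 82.3, 78.0 and 74.0 CPM in controls and 67.4, 67.2 and 66.2 CPM with Ocoxin, with a log2 fold change of -0.22 ± 0.06 (edgeR adjusted p = 0.0340). RPL15 and RPL7, both of the 60S subunit, were also called lower. Their log2 fold changes were -0.20 for RPL15 and -0.19 for RPL7.

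In COAD the direction was the opposite, but without the replicate block no single member was called higher. With the number as a block 30 members were higher, against 4.9% of all genes. The numbers were not taken to pair the COAD libraries. The values that follow are without the block. Of 82 members tested, 76 had a positive log2 fold change, with a median of 0.10, a rise of 7.25%, against -0.01 over all genes. The median was 0.16 without Ocoxin replicate 1 and 0.06 with the length and GC trend removed. None was called higher by edgeR and 1, RPL36A, was lower, where 1.47% of all genes were higher and 1.09% lower. An unadjusted p under 0.05 was found for 34 members, against 2818 of the 17659 genes tested. DESeq2 called 1 member higher, against 1.64% of all genes. For 9 members every treated library lay above every control, and for 2 every treated library lay below, against 10.2% and 10.4% of all genes. RPL26, a 60S protein that also binds p53 mRNA, came nearest to a called rise. It stood at 109, 107 and 110 CPM in controls and at 116, 128 and 129 CPM with Ocoxin, with a log2 fold change of 0.19 ± 0.05 (SE, n = 3 per group, edgeR adjusted p = 0.0551). Without Ocoxin replicate 1, the treated library nearest to the controls, 15 members were called higher, against 1.8% of all genes. Without control replicate 3, 9 were called higher, against 1.96% of all genes.

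In PRAD no member was called by edgeR among the 84 tested. An unadjusted p under 0.05 was found for 9 of them, against 3547 of the 17070 genes tested. DESeq2 called none either. Of all genes tested in PRAD, 2.4% were higher and 0.58% lower. The median log2 fold change of members was -0.05, so that the median member fell by 3.15%, and 68 values were negative. For 33 members the treated libraries all lay below the controls and for 2 all above, against 12.4% and 15.2% of all genes. With the replicate block, which paired these libraries, 0 members were lower where 2.69% of all genes were. RPLP0 stood at 119 ± 2.85 CPM in controls and 110 ± 1.89 CPM with Ocoxin (SD, n = 3), with a log2 fold change of -0.11 and an edgeR adjusted p of 0.157. Because counts per exonic base were held under 1 in this table, differences between abundant genes are compressed. When the trend with exonic length and GC was taken out of each library, 13 members were lower and the median was -0.13. Under that setting 11.5% of all genes were lower.

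**Figure D2:**
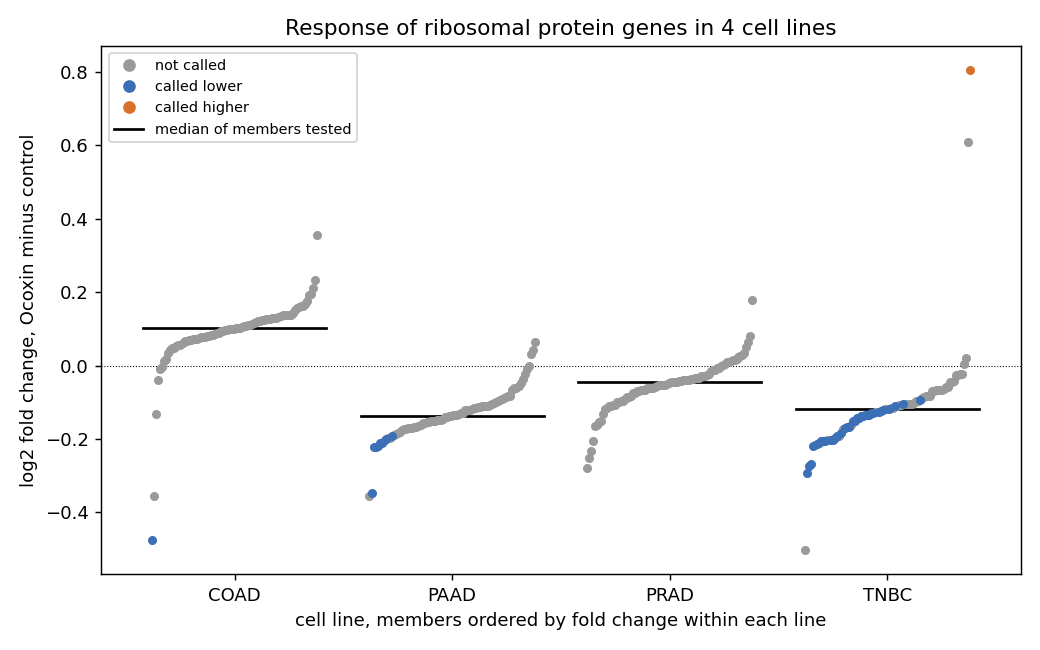
Log2 fold change (Ocoxin minus control) of each member tested, ordered within each cell line; grey points were not called by edgeR, blue were lower, orange higher, and black lines are medians of members tested. The medians are 0.10 (COAD), -0.14 (PAAD), -0.05 (PRAD) and -0.12 (TNBC), and nearly all blue points lie in TNBC (35) and PAAD (8).

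Across lines, in the fits without the replicate block, 46 members were called in no line, 35 in 1 line and 5 in 2 lines. In these fits RPL5, RPL31, RPL34 and RPS3A were lower in both PAAD and TNBC, which share no libraries. Over all genes, 19.6% were called in 1 line and 3.51% in 2. The 4 members are 50% of those lower in PAAD and 11.4% of those lower in TNBC; over all genes tested in both lines the genes lower in both were 41.3% and 12.2%, so the overlap of members lay near that of all genes. RPL5 stood at 754, 678 and 665 CPM in PAAD controls and 612, 611 and 588 CPM with Ocoxin, a log2 fold change of -0.21 ± 0.06 (SE, n = 3 per group, edgeR adjusted p = 0.0297). In TNBC it stood at 553, 560 and 554 CPM in controls and 511, 512 and 526 CPM with Ocoxin, a log2 fold change of -0.11 ± 0.03 (edgeR adjusted p = 0.0307). In COAD and PRAD the groups overlapped for RPL5, with log2 fold changes of 0.07 and -0.04. RPL11, the other 5S particle protein, was called in TNBC at -0.14 ± 0.03 (edgeR adjusted p = 0.00796). It missed the threshold in PAAD at -0.18 ± 0.06 (edgeR adjusted p = 0.0564). With the replicate block RPL11 was called lower in PAAD too (edgeR adjusted p = 6.49e-05). The block gave 60 members lower in PAAD and 57 in TNBC, against 11% and 17.6% of all genes. RPL11, RPL15, RPL27 and RPLP0 were among those lower in both with the block. The share of all genes lower in both with the block was not computed.

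RPL31, which lies near the exit of the peptide tunnel, had 325, 300 and 279 CPM in PAAD controls and 269, 266 and 246 CPM with Ocoxin. In TNBC it had 181, 184 and 190 CPM in controls and 167, 163 and 175 CPM with Ocoxin. Neither line had overlapping groups for this gene, and the log2 fold changes were -0.21 ± 0.06 in PAAD (edgeR adjusted p = 0.0481) and -0.14 ± 0.04 in TNBC (edgeR adjusted p = 0.0273). RPL34 in PAAD fell from 222, 195 and 196 CPM to 185, 173 and 167 CPM, with a log2 fold change of -0.22 ± 0.06 (edgeR adjusted p = 0.0401). RPS3A in TNBC fell from 43.9, 45.2 and 44.4 CPM to 37.2, 38.6 and 40.1 CPM, with a log2 fold change of -0.21 ± 0.05 (edgeR adjusted p = 0.0138).

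**Figure D3:**
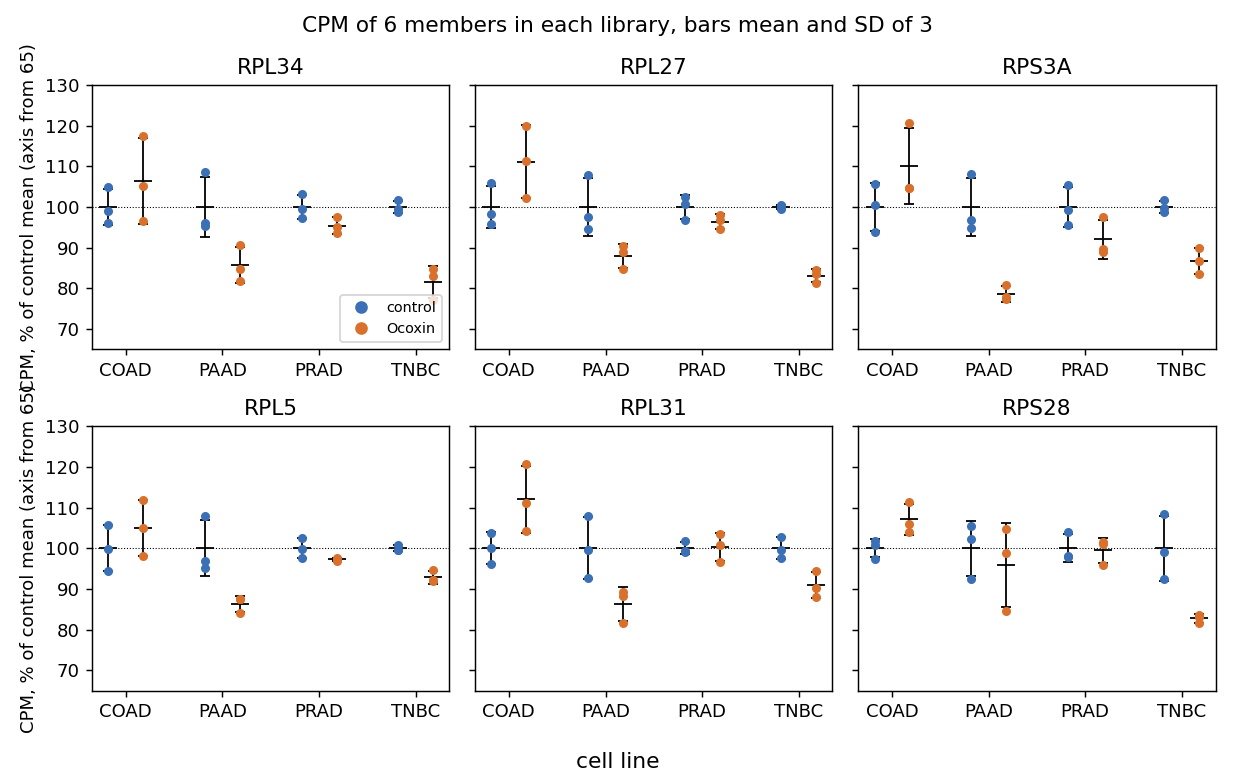
CPM of 6 members in each library as a percentage of the control mean of the same line (vertical axis from 65), with control in blue, Ocoxin in orange, and bars for mean and SD of 3 libraries. RPL34, RPS3A, RPL5 and RPL31 lie below control in PAAD and TNBC. Without the replicate block, RPL27 and RPS28 were called only in TNBC of the 4 lines. With the block RPL27 was called lower in PAAD too (log2 fold change -0.18, edgeR adjusted p = 0.000198). No test of a difference between lines is drawn here.

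The lines were then compared directly by an interaction term in 1 edgeR fit of the 18 COAD, PAAD and TNBC libraries, which tested 83 members. COAD and TNBC received the same dilution. The response was higher in COAD than in TNBC for 22 members, against 4.46% of all genes, and lower for 1, RPL36A, against 3.39%. The median difference of members was 0.22 on the log2 scale, against 0.00 over all genes. RPL27 had the largest difference among those 22, at 0.42 ± 0.08 (edgeR adjusted p = 0.00116), followed by RPL34 at 0.39 ± 0.09 (edgeR adjusted p = 0.00753). The response was also higher in COAD than in PAAD for 27 members and lower for 0, against 1.96% and 2% of all genes, at different dilutions. RPS3A led these at 0.49 ± 0.09 (edgeR adjusted p = 0.00220). Between PAAD and TNBC, 0 members were higher and 1 was lower, RPL36A, against 2.75% and 1.8% of all genes, and 2 members had an unadjusted p under 0.05. DESeq2 gave 0 and 1 for that pair, and 44 members higher for each of the other pairs. The shares of all genes called by DESeq2 in these comparisons were not computed.

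**Figure D4:**
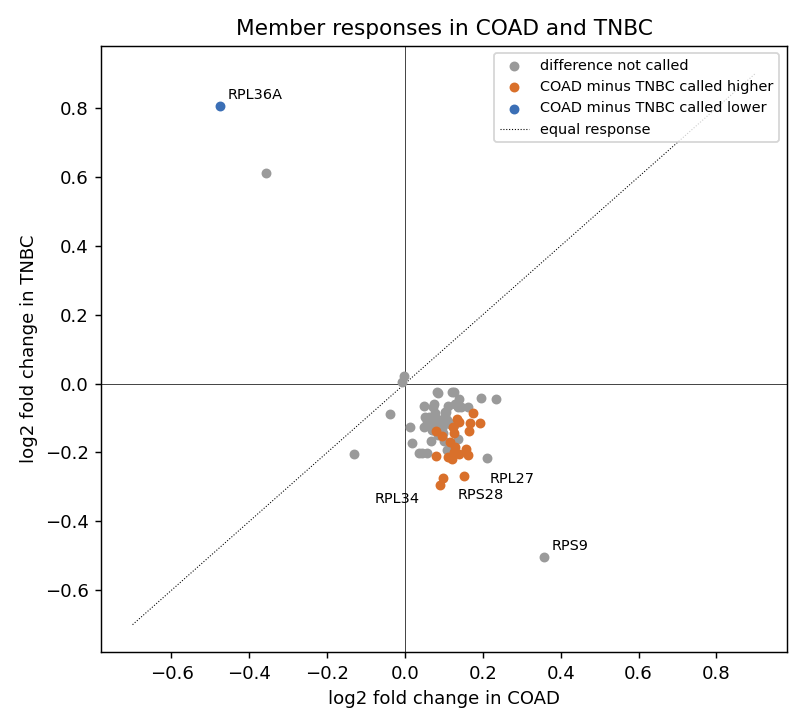
Log2 fold change (Ocoxin minus control) of each member in COAD (horizontal) against TNBC (vertical), coloured by the edgeR call on the difference; the dotted line marks an equal response. Most members lie right of 0 and below 0, the 22 members called higher in COAD are orange, and RPL36A, called lower at -1.27, lies apart.

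RPL36A had the opposite sign to most members in COAD and in TNBC. In COAD it had 22.3, 20.7 and 18.2 CPM in controls and 17.1, 13.02 and 13.7 CPM with Ocoxin, with a log2 fold change of -0.48 ± 0.10 (SE, n = 3 per group, edgeR adjusted p = 0.0167). In TNBC it had 2.88, 2.57 and 2.82 CPM in controls and 4.71, 5.70 and 4.06 CPM with Ocoxin, with a log2 fold change of 0.81 ± 0.16 (edgeR adjusted p = 0.00342). These are the reads that stayed on the gene itself, since 52 annotated pseudogenes held 2258% of its counts. With the pseudogene counts added, the log2 fold change was 0.17 in COAD (edgeR adjusted p = 0.113) and -0.09 in TNBC (edgeR adjusted p = 0.152), so both calls were lost and both directions turned. The values of RPL36A are therefore uncertain. RPL17 and RPS10 were low too, at 5.26 and 2.63 CPM in TNBC controls. Other genes overlap 35.3% of the exonic bases of RPL17 and 28.8% of those of RPS10, readthrough transcripts among them, and pseudogenes held 988.2% and 187% of their counts. With those added, RPS10, not called in any line, turned from -0.25 to 0.21 in PRAD and from -0.20 to 0.15 in TNBC, so these values are also uncertain.

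RPS9, a 40S protein, varied widely between replicates. In COAD controls it stood at 299, 211 and 141 CPM and in treated libraries at 232, 256 and 347 CPM, so the groups overlapped. In TNBC it stood at 196, 173 and 141 CPM in controls and at 135, 120 and 106 CPM with Ocoxin, without overlap. The log2 fold change of -0.50 ± 0.15 in TNBC was not called (edgeR adjusted p = 0.0825), while with the replicate block the edgeR adjusted p was 1.01e-20. PAAD controls held 15.8 CPM, and PRAD controls 25.4 CPM in their own table. RPS9 was singled out after its values were seen.

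The stalk proteins RPLP0, RPLP1 and RPLP2, which recruit elongation factors to the ribosome, had negative log2 fold changes in PAAD and TNBC and positive ones in COAD. RPLP2 was called in TNBC, where it fell from 138, 146 and 131 CPM to 119, 122 and 120 CPM (log2 fold change -0.20 ± 0.04, SE, n = 3 per group, edgeR adjusted p = 0.00685). RPLP0 in TNBC stood at 662, 680 and 630 CPM in controls and 617, 619 and 596 CPM with Ocoxin. It just missed the threshold without the replicate block (edgeR adjusted p = 0.0564) and was called lower with it (edgeR adjusted p = 0.00137). RPLP1 had a log2 fold change of -0.07 in TNBC and -0.10 in PAAD, with overlapping groups.

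Paralogs were mostly not called. RPL39L, a paralog of the tunnel protein RPL39 known from testis and some tumours, held 0 counts in all COAD and PRAD libraries and 52.4, 51.1 and 54.9 CPM in TNBC controls. With Ocoxin it stood at 45.6, 46.8 and 45.0 CPM in TNBC, a log2 fold change of -0.21 ± 0.05 (SE, n = 3 per group, edgeR adjusted p = 0.0112), and it was the only paralog called in any line without the replicate block. In PAAD it stood at 12.4 ± 1.73 CPM in controls and 12.4 ± 0.225 CPM with Ocoxin (SD). Per kb of exon, RPL39L in TNBC controls (49.8 CPM per kb) stood above RPL39 (15.5 CPM per kb), although pseudogenes held 352.4% of the counts of RPL39. Their annotated exons hold 1060 and 2141 bases, which enter these values. RPS27L, a p53 target and paralog of RPS27, had a log2 fold change of -0.19 in TNBC (edgeR adjusted p = 0.0639) and 0.16 in COAD (edgeR adjusted p = 0.242), and its response differed between these lines by 0.35 ± 0.10 (edgeR adjusted p = 0.0306). With the replicate block, RPS27L (edgeR adjusted p = 0.00842) and RPL7L1 (log2 fold change -0.09, edgeR adjusted p = 0.0408) were called lower in TNBC. RPL22L1 and RPL26L1 were not called in any line without the block, nor with it in PAAD, PRAD and TNBC. In COAD, where the numbers were not taken to pair the libraries, RPL22L1 was called higher with the block (log2 fold change 0.23, edgeR adjusted p = 0.0191). RPL22L1 stood at 76.0 CPM in PRAD controls. RPL10L, a near-identical retrogene of RPL10, held 160 to 210 counts in PRAD libraries and 0 in every other library, and the share of RPL10 reads in it cannot be told. RPL10 itself, a late-joining protein of the 60S subunit, was called in TNBC at -0.11 ± 0.03 (edgeR adjusted p = 0.0373). Other genes overlap 55.5% of its exonic bases, and pseudogenes held 32.84% of its counts. With the pseudogene counts added, RPL10 was at -0.11 in TNBC (edgeR adjusted p = 0.0380). RPL3, of the peptidyl transferase region, was at -0.03 ± 0.03 in TNBC and not called. RPL3L, the muscle paralog of RPL3, stayed below 1 CPM in COAD, PAAD and TNBC on average.

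Per kb of exon, members among the highest in controls were RPS12 and RPS4X in COAD (479 and 422 CPM per kb), RPS12 and RPL8 in PAAD (408 and 403 CPM per kb) and RPS6, RPL8 and RPS12 in TNBC (353, 321 and 271 CPM per kb). In PRAD they were RPS12 and RPL10A (68.0 and 54.4 CPM per kb), within the ceiling of that table. The length counts every annotated exon base of a gene, 767 in RPS12 and 9783 in RPS29, so these ranks depend partly on annotation. The lowest, Y-linked members aside, were RPL10L and RPL39L at 0 and RPL3L at 0.244 CPM per kb in COAD, RPL10L at 0, RPL3L at 0.0523 and RPS10 at 1.79 in PAAD, RPL39L at 0, RPL3L at 1.26 and RPL39 at 3.89 in PRAD, and RPL10L at 0, RPL3L at 0.0737 and RPL36A at 0.696 in TNBC. Level and response were set side by side as well: Spearman's rho between control level per kb and log2 fold change over 77 core members was 0.22 in TNBC, 0.04 in COAD, -0.04 in PAAD and 0.01 in PRAD. These members share libraries, so the values are descriptions. Members with and without a TOP tract at the annotated start had close median log2 fold changes, at -0.13 and -0.12 in TNBC, -0.14 and -0.14 in PAAD and 0.10 and 0.10 in COAD. Of 47 members with a tract tested in TNBC, 23 were called lower, and of 19 without, 5 were. These groups were not tested against each other.

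Other genes of the translation machinery were read beside the family. FAU and RPL36AL encode ribosome parts that the symbol rule leaves out. Both were lower in TNBC, at -0.17 for FAU (edgeR adjusted p = 0.0141) and -0.25 for RPL36AL (edgeR adjusted p = 0.00200), and neither was called in the other lines. RACK1, a scaffold protein of the 40S subunit, was at -0.06 in TNBC (edgeR adjusted p = 0.321) and was not called in any line. Of 15 genes with TOP mRNAs, most of them translation factors, 5 were lower in TNBC, against 11.3% of all genes. EEF1B2 led them at -0.26 (edgeR adjusted p = 0.000984). In PAAD 3 of the 15 were lower, against 3.62% of all genes. EIF3E led these at -0.24 (edgeR adjusted p = 0.00974), and NPM1, a nucleolar protein, was among them. None of the 15 was called in COAD or PRAD. Of 53 ribosome biogenesis factors, 7 were higher and 5 lower in TNBC, close to the shares over all genes (9.65% and 11.3%). RRP12, a ribosome export factor, rose by 0.46 on the log2 scale (edgeR adjusted p = 0.000271), and IMP3, of the small subunit processome, was lowest at -0.25 (edgeR adjusted p = 0.0315). In COAD 3 of 53 were lower, HEATR1, UTP20 and NAT10, at -0.29, -0.28 and -0.22, against 1.09% of all genes. In PAAD 5 of 53 were lower, led by NOP16 at -0.27, against 3.62% of all genes. In PRAD 1 was lower, NOP56, a core box C/D snoRNP protein, at -0.17, against 0.58% of all genes.

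In each line, more genes of the list of mTORC1 signalling genes and MYC were not called than called. The list holds activators of mTORC1, such as RHEB, and inhibitors, such as TSC1 and TSC2. A count of rises therefore gives no direction for the pathway. MYC, a transcription factor that drives ribosome production, had 146 ± 12.6 CPM in PAAD controls and 183 ± 11.5 CPM with Ocoxin, and 95.2 ± 4.53 and 116 ± 2.57 CPM in TNBC (SD, n = 3). Both rises were called, at log2 fold changes of 0.32 (edgeR adjusted p = 0.00816) and 0.29 (edgeR adjusted p = 0.000922). In PAAD 4 of 14 genes of this list were higher and 10 not called, where 4.72% of all genes were higher. The 4 were EIF4EBP1 at 0.43, MYC, TSC2 and TSC1. In TNBC 5 were higher, 1 lower and 8 not called, where 9.65% of all genes were higher and 11.3% lower. TSC2 led the rises there at 0.40, and RHEB was lower at -0.17. LARP1 rose in TNBC by 0.13 on the log2 scale (edgeR adjusted p = 0.0198). None was called in COAD or PRAD. Of 14 RNA polymerase I genes, TNBC had 2 higher, led by POLR1A at 0.32, and 1 lower, POLR1D at -0.14. Of all genes in TNBC, 9.65% were higher and 11.3% lower. PAAD had TAF1C higher at 0.26, where 4.72% of all genes were higher. Among 7 chaperones dedicated to single ribosomal proteins, HEATR3, the chaperone of RPL5, was lower in TNBC at -0.25, against 11.3% of all genes. No other chaperone was called. CDKN1A, the p53 target that stops the cell cycle, was higher in COAD at 0.53 and in PAAD at 0.28 and lower in TNBC at -1.16 (edgeR adjusted p = 2.99e-07). This one gene was the only call among the 3 p53 genes in each of those lines, and a part of p53 in its changes was not tested.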

How the data were processed

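PolyA RNA of 24 libraries was sequenced from stranded mRNA preparations. The authors used fastp for trimming, STAR for alignment to hg38, picard for duplicate removal and featureCounts for counting, version 2.0.3 per the file headers, so the deposited values are whole, unnormalized read counts per gene. Counting ignored strand and kept primary alignments, which leaves near-identical copies and overlapping genes uncertain; a fragment gave about 2 counts in the table of COAD, PAAD and TNBC and 1 in that of PRAD. Symbols were matched for 56948 of 58051 identifiers.

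Counts were tested in R 4.3.3 with edgeR 4.0.16 (filterByExpr, TMM, robust quasi-likelihood fit, two-sided F-test) in each cell line alone, with p-values adjusted by Benjamini-Hochberg across the genes that passed the filter, and calls at an adjusted p under 0.05. An exact permutation test of 3 against 3 libraries has 0.1 as its smallest p. Biological coefficients of variation were 6.28% to 6.84%. Differences between lines were tested as an interaction in the 18 libraries of 1 table. The fits were tested on simulated data. Alternatives were DESeq2 1.42.0 and its size factors, scaling without the members, 2 other filters on low counts, protein-coding genes only, removal of a length and GC trend (spline, 5 degrees of freedom), pseudogene counts added, halved counts, a correction for reads with the same start in PRAD, an adjusted p under 0.01, the replicate number as a block, and each library left out. Deviations of libraries with the same number from their group means correlated at 0.176 to 0.631 in PAAD, PRAD and TNBC, where the numbers were taken to pair the libraries. The COAD pairs correlated at 0.404, 0.0842 and 0.505. As 1 of them lay under the threshold of 0.1, the numbers were not taken to pair the COAD libraries. Members and lists were chosen with earlier results of these data known. Named members were, per line, up to 5 called rises and 5 called falls of largest size, the paralog pairs, the stalk and 5S proteins, members called in 2 lines, and the 3 highest and 3 lowest per kb, and from each of 7 other lists the largest called rise and fall. Results for a few genes that this rule names are not reported here.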

Additional observations from a re-analysis of the deposited data

Results flagged for a closer look

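The response to Ocoxin differed between cell lines for a number of ribosomal protein genes in the interaction term of edgeR. It was higher in COAD than in TNBC for 22 of 83 members, against 4.46% of all genes. It was lower for 1 member, RPL36A, against 3.39%. The response was higher in COAD than in PAAD for 27 members, against 1.96% of all genes, at different dilutions. Between PAAD and TNBC, 1 member was lower, against 1.8% of all genes. This was RPL36A again, at -0.86 ± 0.22 on the log2 scale (edgeR adjusted p = 0.0213). The values of RPL36A are uncertain because most of the counts of this sequence lie on pseudogenes.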

How the results depend on the processing

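The number of members called depended on the setting more than their direction did. In COAD, where edgeR called 0 members higher and 1 lower, 1 was higher with DESeq2, with its size factors, with at least 10 counts in every library, with protein-coding genes only, with halved counts or with pseudogene counts added, and 4 were without a filter on low counts. Of all genes, 1.26% to 2.23% were higher under these settings. The COAD replicate numbers were not taken to pair the libraries. With the number as a block 30 were higher (4.9% of all genes). With the length and GC trend removed as well 19 were higher and 2 lower, against 4.76% and 10.4% of all genes. With pseudogene counts added, 0 were lower in COAD, 0 were higher in TNBC, and RPL36A turned to 0.17 in COAD and to -0.0903 in TNBC. In PAAD, against 8 lower, DESeq2 gave 13 (4.36% of all genes), no filter 18 (2.61%) and the length and GC trend removed 26 (7.23%). The replicate block gave 60 there (11%) and both together 56 (10.5%). In TNBC, against 35 lower, the block gave 57 (17.6% of all genes) and with the trend removed as well 60 (20%). At an adjusted p under 0.01, 0 remained lower in COAD, 1 in PAAD and 15 in TNBC, against 0.283%, 1.46% and 5.76% of all genes. In PRAD, where 0 were lower, the trend removed gave 13 (11.5% of all genes) and with the block 45, where 24.3% of all genes were lower. The PRAD median of -0.046 moved to -0.0543 with DESeq2 or its size factors, -0.0686 without a filter, -0.0385 with protein-coding genes only, -0.127 with the trend removed, with or without the block, and -0.0619 with the correction for reads with the same start. For the difference between COAD and TNBC the members higher rose from 22 to 44 with DESeq2 and to 65 with the replicate block. Between COAD and PAAD they rose from 27 to 44 and 64, and between PAAD and TNBC the block gave 4 lower. In these blocked fits the COAD libraries were paired by number too. The shares of all genes called in these alternative fits of the difference were not computed, so these counts have no background beside them. Leaving out 1 library gave 0 to 15 members higher and 0 to 1 lower in COAD, 1 to 35 lower in PAAD, 17 to 39 lower in TNBC, and a PRAD median from -0.064 to -0.0488. Apart from these counts the block changed no direction of a call. The cause of these shifts was not tested. No median of members changed sign under any setting run; that of COAD ranged from 0.0627 (length and GC trend removed) to 0.159 (without Ocoxin replicate 1) and that of PAAD from -0.182 (without control replicate 3) to -0.0889 (without control replicate 1).

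The limits are few libraries, changes of the order of the spread between libraries in PAAD and COAD, and counting that spreads reads of these genes over pseudogenes. The PRAD table compresses abundant genes.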
